A study of Mus musculus with 12 samples.

Results

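The hypothalamus was compared with the cerebellum of mouse brain on arrays that carry probes for long noncoding RNAs and mRNAs. These were the samples whose tissue label was hypothalamus or cerebellum, 6 of the 12 samples of the series, with 3 of each region. The other 6 samples were of hippocampus and olfactory bulb. Both regions were dissected under a stereomicroscope from male BALB/c mice aged 10 weeks, and no treatment or genetic change was named for any of them. The series text gives 3 mice for the arrays, but no label ties an array to an animal, so the p-values cover only the scatter among these arrays, which may be technical.

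The hypothalamus lies at the base of the forebrain and holds many small groups of neurons. Its neurons release peptides such as vasopressin, oxytocin and orexin, and they govern feeding, body temperature, water balance and the pituitary. The cerebellum lies behind the brainstem, coordinates movement, and consists for the most part of granule neurons, with Purkinje cells as its output. Long noncoding RNAs are transcripts without a long open reading frame, and many are made in few tissues or cell types.

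Cerebellum replicates 1 and 3 were nearly the same scan. Their log2 signals differed with an SD of 0.0262 over 15195 bright probes, below the smallest SD of 0.0308 between copies of a probe within a scan. The other 5 pairs of scans from the same region gave SDs of 0.313 to 0.413. Cerebellum replicates 1 and 3 were therefore averaged and counted as 1 array, which left 3 hypothalamus arrays against 2 cerebellum arrays. The median processed signal was 289.7 to 307.3 on the hypothalamus scans and 381.4 to 413.9 on the cerebellum scans, and 90.1% to 92.6% of probes were well above background. No spot was saturated. The small number of arrays limits the precision.

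Levels are the log2 of the processed signal, less the 75th percentile found on the same scan, so a level of 0 is that percentile, and they are compared within a probe only. A difference is hypothalamus minus cerebellum on this scale, and a difference of 1 is 2-fold. A probe was called when limma's adjusted p (Benjamini-Hochberg over all 56573 tested probes) was under 0.05 and the difference was at least 2-fold. Most probes bear only an array-design number, and no table used here pairs those numbers with genes. Marker genes of the hypothalamus, of granule and Purkinje cells and of glia were therefore not analysed here, and the dissection was not checked against them. In tissue, fewer cells of a type and less RNA per cell cannot be told apart.

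Differences between the regions were widespread and more often toward the hypothalamus. Of 56573 tested probes, 5992 (10.6%) were called. The signal was higher in the hypothalamus at 3500 probes (6.19%) and higher in the cerebellum at 2492 probes (4.4%). By the adjusted p alone, 14800 probes (26.2%) differed, 8319 (14.7%) of them higher in the hypothalamus and 6481 (11.5%) higher in the cerebellum. The arrays of the 2 regions did not overlap at 29628 probes (52.4%).

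**Figure D1:**
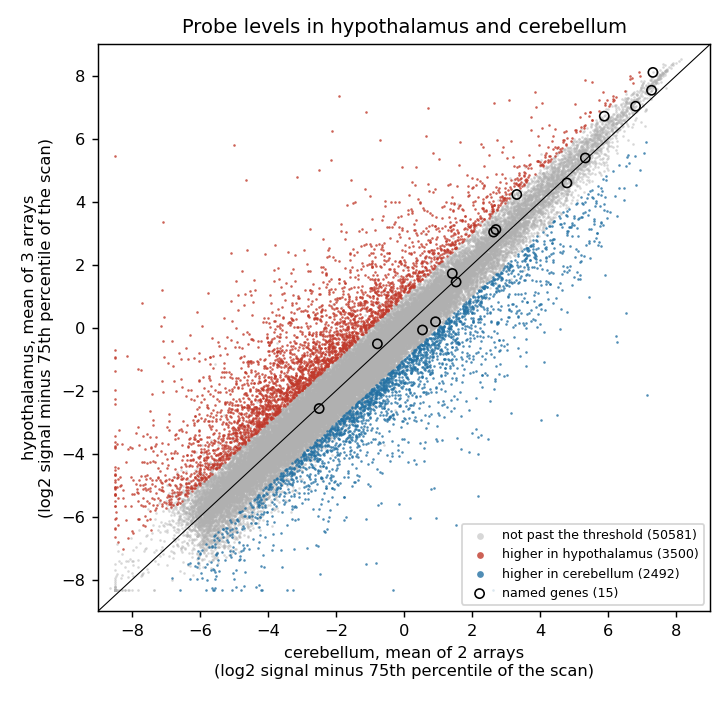
Mean level of each tested probe in the hypothalamus (vertical axis, 3 arrays) against the cerebellum (horizontal axis, 2 arrays), both as log2 signal minus the 75th percentile of the scan, with the line of equal levels. The 3500 red probes were called higher in the hypothalamus and the 2492 blue probes higher in the cerebellum, at all signal levels, while the 15 circled genes lie near the line.

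Called probes were found about as often among dim probes as among bright ones. With tested probes split by mean level into 4 equal bins, the share called was 10.0% in the dimmest bin, 10.2% and 10.4% in the next ones and 11.8% in the brightest. A probe was tested if 1 region alone was above background, so these shares include probes without measured signal in both regions. Of the called probes, 3093 of 3500 and 2299 of 2492 were well above background on all 6 scans. The bins were not recounted for these alone. The SD between arrays had a median of 0.159 in the hypothalamus and 0.158 in the cerebellum over all tested probes. Among the probes higher in the hypothalamus the median level was -0.84 there and -2.88 in the cerebellum, and their median difference was 1.66. Among the probes higher in the cerebellum the median level was -0.14 there and -1.93 in the hypothalamus, and their median difference was -1.51. Those medians are on the log2 scale and were fixed in sign by the call.

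As a ratio of the counts, the surplus toward the hypothalamus was larger at each cut-off from 4-fold to 64-fold than at 2-fold. Over all called probes it was largest at 32-fold, and among those well above background on all 6 scans at 16-fold. At 4-fold or more, 1293 called probes were higher in the hypothalamus and 743 in the cerebellum. At 8-fold or more there were 548 and 251, and at 16-fold or more 214 and 80. At 32-fold or more there were 87 and 30, and at 64-fold or more 39 and 16. Probes well above background on all 6 scans have folds that rest on signal in both regions. Among them the counts were 414 and 203 at 8-fold or more, 148 and 57 at 16-fold, 52 and 21 at 32-fold and 18 and 9 at 64-fold. With normexp background correction in place of the scanner's own, the counts at 8-fold or more fell to 295 and 160. Under each of the 19 alternative settings run, the count at 8-fold or more was higher for the hypothalamus.

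**Figure D2:**
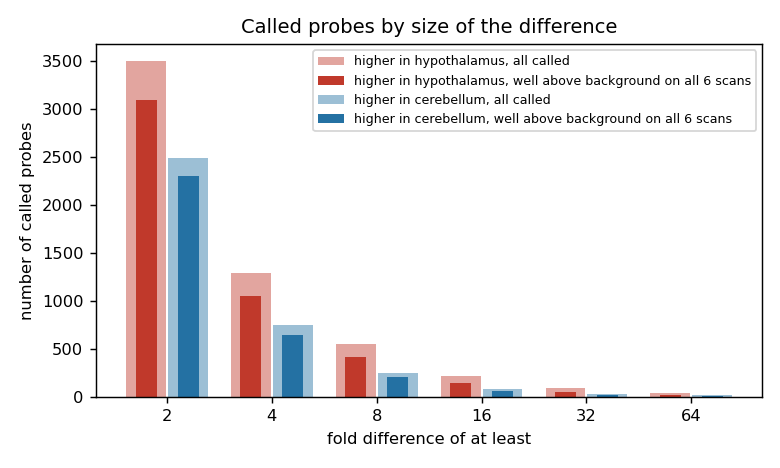
Number of called probes (vertical axis) with a difference of at least 2, 4, 8, 16, 32 or 64-fold (horizontal axis), higher in the hypothalamus (red) or in the cerebellum (blue). Pale bars are all called probes and dark bars those well above background on all 6 scans; at 8-fold the dark bars stand at 414 and 203.

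Scan time, as the file headers give it, was taken as the batch. Hypothalamus and cerebellum replicates 1 shared the first scan time and replicates 2 the second. Among the scans of these regions, the third hypothalamus scan shared its scan time with no other. Cerebellum replicate 3 had another scan time but was averaged with replicate 1. Within the first scan time all 3500 probes called higher in the hypothalamus, and 2486 of the 2492 called higher in the cerebellum, had the direction of the call. Within the second, all 3500 and 2491 had it. These scans are the same ones that made the calls, so the counts describe and do not test. Scan time was also entered as a block in the fit, where each averaged array was given the scan time of its replicate 1. With that block, 3596 probes were called higher in the hypothalamus and 2733 in the cerebellum.

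The balance between the regions differed between the scan times when every probe at 2-fold was counted without a test. In the first scan time the hypothalamus was above the cerebellum by 2-fold or more at 4723 probes and below it by as much at 3632. In the second, the balance turned, with 3872 higher in the hypothalamus and 5506 in the cerebellum. The second scan time still gave 3427 against 4373 among probes that all 6 scans measured well above background. At 8-fold or more the hypothalamus led in both, with 594 against 257 in the first and 552 against 424 in the second. Across the 56543 probes compared, which do not stand for replicates, r between the differences of the first and second scan time was 0.813. The surplus of probes with 2-fold higher signal in the hypothalamus therefore held in 1 of 2 scan times, and that at 8-fold in both.

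The largest differences between the regions exceeded 100-fold in both directions, among probes that all 6 scans measured well above background. Such probes have an array-design number only. ASMM10P021540 had levels of 6.07, 5.68 and 5.66 in hypothalamus 1, 2 and 3, against -4.96 and -5.02 in the averaged cerebellum array and cerebellum 2. Its difference was 10.79 (SE 0.21, limma adjusted p = 6.47e-08), which is 1775-fold, and 9.62 with normexp correction. The hippocampus (mean -3.26) and the olfactory bulb (mean -4.60) lay far closer to the cerebellum. ASMM10P032896 had 4.69, 4.62 and 4.71 in the hypothalamus against -4.58 and -4.70, a difference of 9.31 (SE 0.11, limma adjusted p = 1.16e-08), or 8.21 with normexp. It too was low in the hippocampus (mean -4.20) and the bulb (mean -3.97).

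In the other direction, ASMM10P011114 had levels of -2.13, -2.20 and -2.13 in the hypothalamus against 7.17 and 7.10 in the cerebellum. The difference was -9.29 (SE 0.13, limma adjusted p = 1.97e-08), or 626-fold higher in the cerebellum. ASMM10P004942 had -5.28, -5.80 and -5.0 in the hypothalamus against 2.35 and 1.99, a difference of -7.53 (SE 0.62, limma adjusted p = 5.79e-05), or -5.89 with normexp. Both were low in the hippocampus (means -3.13 and -4.80) and the olfactory bulb (means -2.78 and -4.98) as well. In all 4 probes every array of one region lay more than 100-fold from every array of the other. Yet MM9NEGATIVE016, a probe named as a negative control, had mean levels of -4.36 in the hypothalamus and -3.79 in the cerebellum. In the region where they were low, ASMM10P021540, ASMM10P032896 and ASMM10P004942 were dimmer still. Whether their low side is signal of the target was not tested, so the size of their folds is uncertain. For ASMM10P021540 the difference was 11.02 within the first scan time and 10.70 within the second, and for ASMM10P011114 it was -9.30 in both.

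The levels of the other 2 regions were set beside each called difference. On a scale where the cerebellum mean is 0 and the hypothalamus mean is 1, the 2492 probes called higher in the cerebellum had a median position of 0.88 in the hippocampus and 0.66 in the olfactory bulb. The hippocampus was closer to the hypothalamus at 79.6% of them and the bulb at 64.4%. Both lay closer to the hypothalamus at 1380 (55.4%) and both closer to the cerebellum at 284 (11.4%). At 1380 of these probes, therefore, both other regions lay on the side of the hypothalamus, and at the remainder outside the 284 they lay on different sides.

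The probes called higher in the hypothalamus were less one-sided. Their median position was 0.61 in the hippocampus and 0.57 in the bulb. Both regions lay closer to the hypothalamus at 1435 of the 3500 probes (41%) and both closer to the cerebellum at 946 (27.0%). The hippocampus level was beyond that of the hypothalamus at 23.2% and the bulb level at 25.5%. The positions are a description with no test, since the arrays that made the calls also set the ends of the scale.

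**Figure D3:**
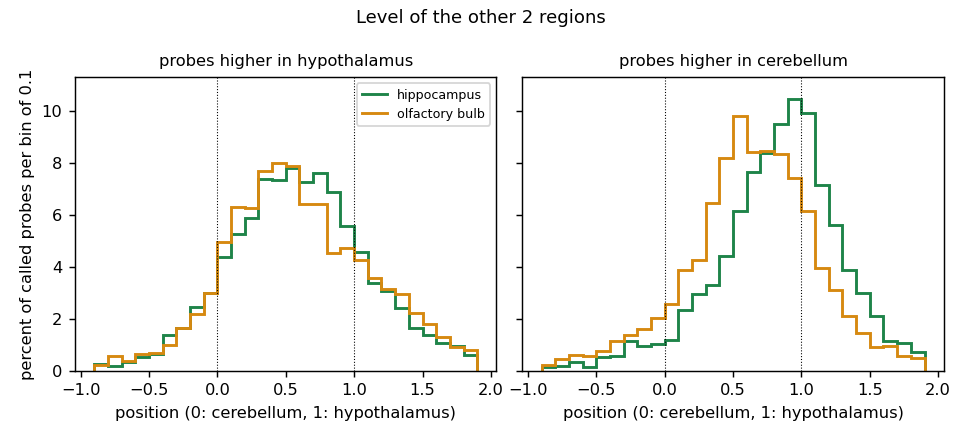
Position of the hippocampus (green) and olfactory bulb (orange) between the cerebellum mean (0) and the hypothalamus mean (1), for probes called higher in the hypothalamus (left) and in the cerebellum (right), as percent of called probes per bin of 0.1; probes under -0.9 or over 1.9 are not drawn. On the right the hippocampus piles up near 1 (median 0.88), on the left both regions spread around medians of 0.61 and 0.57.

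Some probes had signal above background in one of the 2 regions alone. At 277 probes the signal was well above background on all 3 hypothalamus scans and on no cerebellum scan, and at 300 probes the reverse held. Such a difference has only an approximate lower bound, here the level in the region with signal over the lowest level that counted as above background in the other. A probe that did not count as above background need not lie below that lowest level, so the bound is not guaranteed. The bound was at least 2-fold at 177 of the 277 hypothalamus probes and at 56 of the 300 cerebellum probes. At 27 of the 300 the cerebellum level lay below that floor, so no difference is bounded. Of the 277 probes 239 were called, and of the 300 probes 117, against 10.6% of all tested probes. The choice of these probes used the same scans as the call, so those counts are a description only. The bound was at least 8-fold at 39 and 9, and the highest bounds were 3155-fold and 393-fold. Of the 277 probes, 44 were above background on no scan of the hippocampus or the bulb, and of the 300, 65 were.

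Leaving out an array removes a condition that a probe had to meet, so it can keep or raise these counts but not lower them. The direction of the change was thus fixed, and only its size is informative. Without cerebellum 2 the 277 became 530. The 300 became 496 without hypothalamus 3 and 479 without cerebellum 2. Without the averaged cerebellum array, which holds 2 scans, the 300 became 611. The median bound of the 300 was 1.32-fold, so most lay close to the background. On every one of the 6 scans, 3 of the 15 probes named as negative controls lay well above background, and they were brighter in the cerebellum, with differences of -0.57 to -0.36 on the log2 scale. Their part in these counts was not tested.

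Among the tested probes, 15 were named by a gene's RefSeq accession, each printed in 20 copies, and many of these genes are widely used as references. By the adjusted p alone 4 were higher in the hypothalamus and 2 in the cerebellum, 6 of 15 (40%), against 26.2% of all tested probes. None reached 2-fold. At 10 of the 15 the arrays of the regions did not overlap, against 52.4% of all probes.

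The cytoskeletal genes were higher in the hypothalamus. Actb, which encodes the cytoplasmic β-actin, had levels of 4.19, 4.18 and 4.31 in the hypothalamus against 3.32 and 3.30 in the cerebellum. The difference was 0.92 (SE 0.10, limma adjusted p = 0.000285), the largest of the 15. Tuba1b, an α-tubulin of microtubules, had 8.16, 8.03 and 8.11 against 7.39 and 7.22, a difference of 0.79 (SE 0.10, limma adjusted p = 0.000684). For Tuba1b the difference fell to 0.29 and the adjusted p rose to 0.0965 with quantile normalization.

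Among genes of metabolism, Hprt and G6pd2 differed in opposite directions. Hprt, the enzyme that salvages hypoxanthine and guanine, had 6.76, 6.65 and 6.72 in the hypothalamus against 5.97 and 5.79, a difference of 0.83 (SE 0.098, limma adjusted p = 0.000457), and of 0.48 with quantile normalization (adjusted p = 0.0122). G6pd2, an intronless copy of the glucose-6-phosphate dehydrogenase gene, had -0.05, -0.11 and -0.07 against 0.57 and 0.51, a difference of -0.61 (SE 0.085, limma adjusted p = 0.00107). Its probe may also bind RNA of the parent gene, as near-identical copies of Actb, Tuba1b, Gapdh, Ppia and Rpl13a may for theirs.

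Other metabolic genes did not pass. Gapdh, a glycolytic enzyme, had a difference of 0.22 (95% interval -0.04 to 0.49, limma adjusted p = 0.219), and of -0.23 with quantile normalization. Gk, glycerol kinase, had 0.30 (-0.24 to 0.85, limma adjusted p = 0.429) with hypothalamus arrays at 1.82, 1.32 and 2.02, the widest spread of the 15 (SD 0.36). Gusb, the lysosomal β-glucuronidase, had 0.27 (0.02 to 0.52, limma adjusted p = 0.115). Ldhal6b, a lactate dehydrogenase copy, had -0.07 (-0.53 to 0.39, limma adjusted p = 0.858), with levels of -2.69, -2.31 and -2.70 against -2.51 and -2.48. In the olfactory bulb its level was higher, at a mean of -1.19.

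Of the surface molecules, B2m, the light chain of MHC class I, was higher in the hypothalamus, with 3.12, 2.99 and 2.99 against 2.70 and 2.56. The difference was 0.40 (SE 0.097, limma adjusted p = 0.0174). The adjusted p was 0.0666 in a fit of the 2 regions alone, 0.0551 without hypothalamus 1 and 0.110 without cerebellum 2. Tfrc, the transferrin receptor that takes up iron, had a difference of 0.06 (-0.16 to 0.28, limma adjusted p = 0.728), which was -0.16 with quantile normalization and -0.02 without cerebellum 2.

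Among genes of transcription, translation and folding, Tbp alone passed. Tbp, the TATA-binding protein of the basal transcription machinery, had 0.30, 0.06 and 0.20 in the hypothalamus against 1.03 and 0.81 in the cerebellum. The difference was -0.73 (SE 0.14, limma adjusted p = 0.00524), the largest toward the cerebellum. Nono, a nuclear RNA-binding protein, had -0.08 (-0.33 to 0.17, limma adjusted p = 0.687). Rpl13a of the large ribosomal subunit had 0.42 (0.02 to 0.82, limma adjusted p = 0.128). Of the folding proteins, Ppia (cyclophilin A) had 0.26 (0.05 to 0.47, limma adjusted p = 0.0696), which turned to -0.22 with quantile normalization. Hsp90ab1, a cytosolic chaperone, had -0.19 (-0.46 to 0.08, limma adjusted p = 0.310).

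With scan time as a block, 11 of the 15 genes passed, 8 higher in the hypothalamus and 3 in the cerebellum. Rpl13a, Gusb, Ppia and Gapdh joined the first group and Hsp90ab1 the second. When only the 2 regions were fitted with the same block, 5 genes passed, and neither those 5 additions nor B2m was among them (adjusted p = 0.0580 to 0.198). Hypothalamus 3 had no cerebellum array in its block there, so that fit gave the same differences as leaving it out. With so few arrays left, the loss of genes does not decide which fit is right. Probes that the array marks as controls for Gapdh and Pgk1, a further glycolytic enzyme, were left out of the fit. In 10 copies each and with no test, their differences were 0.09 and 0.11 for Gapdh and -0.05 and 0.30 for Pgk1. Within the first scan time Actb differed by 0.85, Hprt by 0.79 and Tbp by -0.73, and within the second by 0.88, 0.86 and -0.75. The 15 genes thus gave unequal ratios between these 2 regions on the 75th-percentile scale, from 0.92 for Actb to -0.73 for Tbp.

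**Figure D4:**
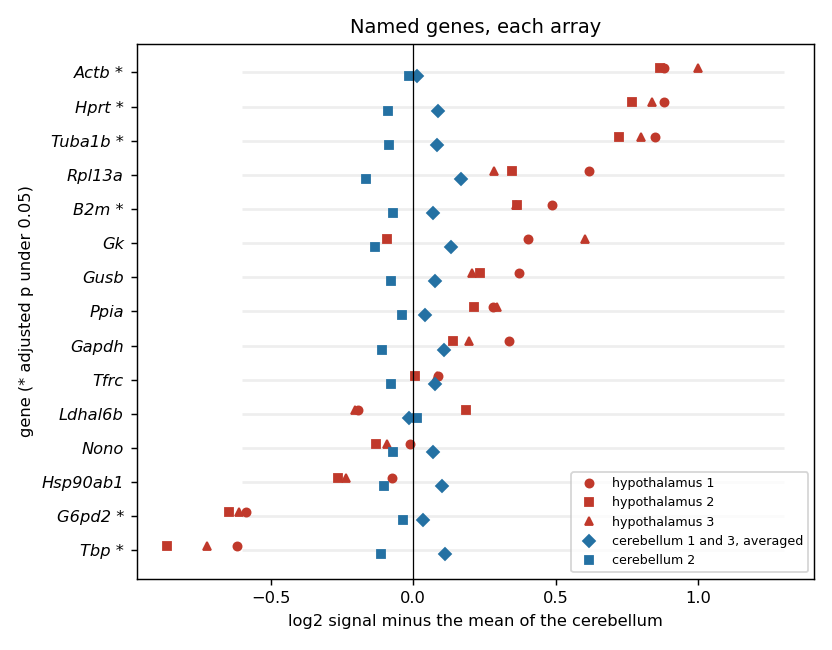
Level of each of the 15 named genes on each array as log2 signal minus the gene's cerebellum mean (horizontal axis), for hypothalamus arrays (red) and cerebellum arrays (blue); an asterisk marks an adjusted p under 0.05. For Actb, Hprt and Tuba1b all red points lie right of the blue ones, for G6pd2 and Tbp all lie left.

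Probes named for long intergenic noncoding RNAs (lincRNAs) were called far less often than the rest. The files hold 3 kinds of such names, for human lincRNAs, mouse lincRNAs and lincRNA exons of the mm9 build, and what the first kind is meant to detect in mouse is not stated. Of 1432 tested, 34 (2.37%) were called, against 10.8% of the 54336 tested probes of the main array-design class and 10.6% of all tested. The share was 2.0% for human lincRNA names, 2.98% for mouse lincRNA names and 2.6% for exons. These probes were dimmer, with a median level of -3.23 in the hypothalamus against -1.58 for the main class, and their SDs were larger, with a median of 0.255 against 0.157. In the dimmest of the 4 bins by level 1.76% of them and 10.3% of the main class were called, and in the brightest bin 4.72% and 11.8%. The part of the larger SD in the lower share was not tested.

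Of the 34, 15 were higher in the hypothalamus and 19 in the cerebellum. On all 6 scans, 12 of the 15 and 18 of the 19 were well above background, and the others have no measured difference. Among those measured, the differences ran from 1.01 to 2.28 on the log2 scale toward the hypothalamus and from 1.00 to 4.46 in size toward the cerebellum, with 1 and 7 probes at 4-fold or more. The counts moved with the processing. Normexp correction gave 7 for the hypothalamus and 11 for the cerebellum, and counting all 12 scans gave 25 and 34. For the cerebellum, scan time as a block gave 30 and as a random block 57. A correction for position on the array gave 25 for the hypothalamus. Without hypothalamus 3 the count of 15 fell to 9.

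**Figure D5:**
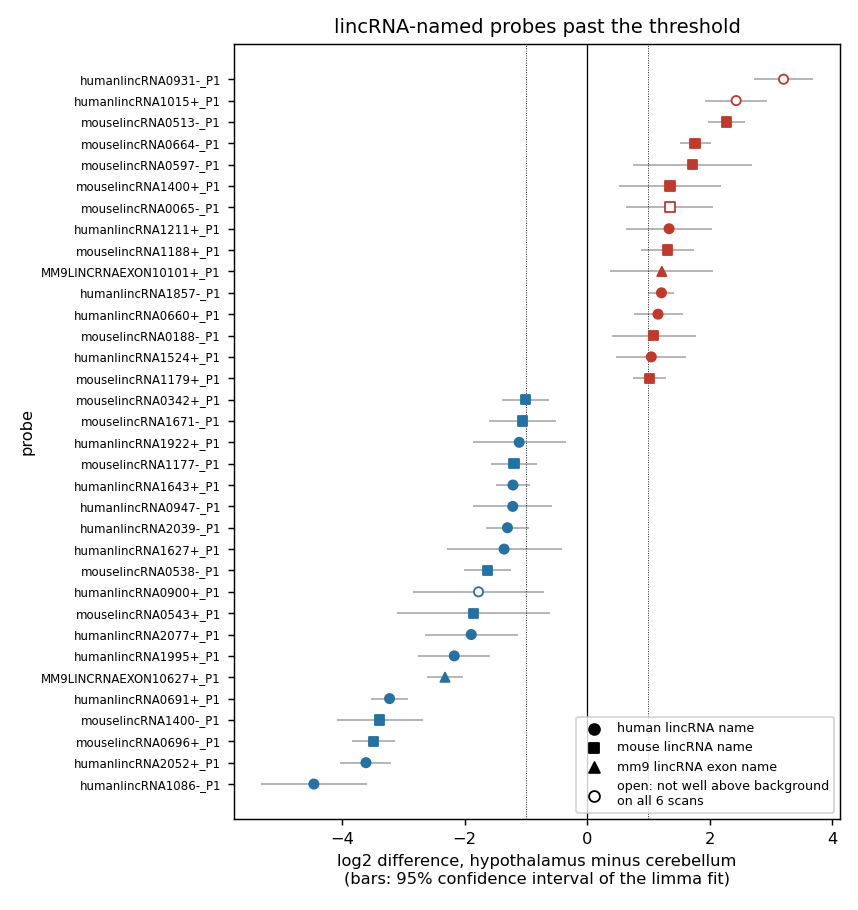
Difference in log2 signal, hypothalamus minus cerebellum (horizontal axis), with its 95% confidence interval from the limma fit, for the 34 called lincRNA-named probes (rows); symbols give the kind of name, dotted lines mark 2-fold, and open symbols mark probes not well above background on all 6 scans, whose fitted difference is not a measured one. The 12 filled red probes lie between 1.01 and 2.28 and the 18 filled blue ones reach -4.46.

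The lincRNA-named probes with the largest differences toward the hypothalamus, among those well above background on all 6 scans, carried mouse names. mouselincRNA0513-_P1 had levels of -0.91, -1.11 and -0.97 in the hypothalamus against -3.18 and -3.38 in the cerebellum. The difference was 2.28 (SE 0.13, limma adjusted p = 7.82e-06), and it was 2.27 within the first scan time and 2.26 within the second. The olfactory bulb (mean -0.86) was at the level of the hypothalamus and the hippocampus (mean -2.18) between the 2 regions. mouselincRNA0664-_P1 had -1.91, -1.99 and -1.91 against -3.66 and -3.73, a difference of 1.76 (SE 0.11, limma adjusted p = 1.20e-05).

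The third, mouselincRNA0597-_P1, was less certain. It had 1.06, 0.69 and 1.00 in the hypothalamus, while the cerebellum arrays stood apart at -1.45 and -0.16 (SD 0.91). The difference of 1.72 (SE 0.42, limma adjusted p = 0.0180) was 2.52 within the first scan time and 0.84 within the second. It no longer passed without the averaged cerebellum array (1.07, adjusted p = 0.127), without hypothalamus 1 or hypothalamus 3 (adjusted p = 0.0546 and 0.0558), or with scan time as a block (adjusted p = 0.0530). humanlincRNA0931-_P1 had the largest fitted difference toward the hypothalamus, but it was above background on no cerebellum scan. By the approximate bound used above, humanlincRNA0931-_P1 was at least 1.84-fold higher in the hypothalamus (limma adjusted p = 1.47e-05).

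Toward the cerebellum, the largest differences among the lincRNA-named probes were greater. humanlincRNA1086-_P1 had -3.99, -3.54 and -3.03 in the hypothalamus against 0.72 and 1.17 in the cerebellum, a difference of -4.46 (SE 0.37, limma adjusted p = 6.17e-05), or -3.80 with normexp. humanlincRNA2052+_P1 had 0.16, 0.13 and 0.41 against 3.70 and 3.99, a difference of -3.61 (SE 0.18, limma adjusted p = 3.61e-06). mouselincRNA0696+_P1 had 0.06, 0.24 and 0.37 against 3.63 and 3.82, a difference of -3.50 (SE 0.15, limma adjusted p = 1.80e-06). In each of the 3 the hippocampus and the olfactory bulb lay between the hypothalamus and the cerebellum. For humanlincRNA2052+_P1 their means were 1.44 and 1.63.

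Some of these probes rose and fell together over the arrays. Over the 10 arrays of all 4 regions, the levels of humanlincRNA2052+_P1 and mouselincRNA0696+_P1 correlated at r = 0.998. Those of humanlincRNA1086-_P1 and mouselincRNA1400-_P1 had r = 0.997, though the first minus the second was -2.66 to -1.43 on single arrays. Both pairs were picked after their values were seen, from 561 pairs of called lincRNA-named probes, and all points share the same arrays. All 4 probes were called higher in the cerebellum, which by itself adds to r. Across the pairs, mouselincRNA0696+_P1 and mouselincRNA1400-_P1 had r = 0.990. Whether the probes of a pair share sequence was not analysed here.

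Names with a plus and a minus probe give both strands of a locus, as far as the names say. Of 521 such names with both probes tested, 26 had at least 1 called probe and 1 had both, mouselincRNA1400, where the directions were opposite. For single probes, the called share was 2.37% of the lincRNA-named and 10.6% of all tested. A single name with both probes called says nothing about strands in general. The minus probe, mouselincRNA1400-_P1, had -1.33, -0.93 and -0.75 in the hypothalamus against 2.17 and 2.59, a difference of -3.39 (SE 0.30, limma adjusted p = 9.09e-05). The plus probe, mouselincRNA1400+_P1, was dim, with -3.70, -3.17 and -2.64 against -4.75 and -4.29, a difference of 1.35 (SE 0.36, limma adjusted p = 0.0266). The call of the plus probe was lost with normexp correction (0.94) and without the averaged cerebellum array, hypothalamus 2, cerebellum 2 or hypothalamus 3 (adjusted p = 0.0599 to 0.176). The labels describe random priming and not how strand was kept in the labelled RNA.

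Probes with neighbouring array-design numbers tended to be called alike. After a probe called higher in the hypothalamus, the probe with the next number was called the same way in 536 of 3249 cases (16.5%), against 6.19% of all tested probes. After one called higher in the cerebellum it was 308 of 2304 (13.4%), against 4.4%. At a distance of 100 numbers the shares were 6.38% and 4.69%. The differences of neighbours correlated at r = 0.126 across 50953 pairs, which are not independent. What neighbouring numbers share in the array design was not analysed here.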

How the data were processed

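Each sample was 1 scan of a single-colour (Cy3) Arraystar array. Per the labels' protocols, total RNA was depleted of ribosomal RNA and then amplified and labelled by random priming. Spot extraction by the authors used Agilent Feature Extraction 11.0.1.1, per the file headers. In the deposited files of the scanner, spot intensity is a processed signal from which background had been subtracted. A further deposited table gives log2 values for 60804 probes (slopes of 0.973 to 1.01 on the scanner values, column medians of 8.48), and its normalization is unstated.

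Outlier spots (19 to 57 per scan of these regions), control spots and 15 negative-named probes were dropped, and repeated spots of a probe averaged. Tested were probes that every scan of 1 or more regions measured well above background (56573 of 60915 probes; 79 lacked a value on some array, and their fits used the others). The log2 processed signal minus each scan's 75th percentile was fitted with limma 3.58.1 in R 4.3.3 (lmFit, eBayes). All 4 regions entered, as 10 arrays after near-identical scans were averaged, with 6 residual degrees of freedom. On simulated data, 71% of changes of 2 and 87% of changes of 3 (log2) were recovered among 200 changed of 56573 probes, with 11 false calls. The simulated noise was independent between arrays, and far fewer probes were changed than the 26.2% that passed the adjusted p here. Those figures check that the fit runs and are not rates for this comparison.

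The 15 RefSeq accessions all matched a gene of the RefSeq table when versions were ignored. Probe names use mm9, so no coordinates are given, and gene lists could not be applied. Named were every gene with an accession, and the called probes with the largest differences among those well above background on all scans whose regions did not overlap (2 array-design numbers and 3 lincRNA names per direction). The comparison, the lists and this rule were chosen with earlier results of these data known. mouselincRNA1400, humanlincRNA0931 and the alike pairs were picked after their values were seen. Alternatives covered normalization, background correction, dim-probe filters, blocks, the samples fitted, the variance model, array position and leaving out each array. A fit of the 2 regions alone with the replicate block was added after the data were seen.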

Additional observations from a re-analysis of the deposited data

Results flagged for a closer look

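Probes named as negative controls, which entered no comparison, gave signal. Of the 15, 3 lay well above background on each of the 6 scans, judged by over 50% of their 20 copies. MM9NEGATIVE016 had a processed signal of 53.1 to 59.7 on the hypothalamus scans and 101.9 to 111.4 on the cerebellum scans, and after scaling its difference (hypothalamus minus cerebellum, log2) was -0.57. MM9NEGATIVE017 had 92.6 to 101.8 against 153.9 to 184.9, a difference of -0.36. MM9NEGATIVE003 had 16.02 to 25.9 against 32.02 to 46.8, a difference of -0.52, with 55% of its copies above background on the lowest scan. The unscaled signals of the regions did not overlap for any of the 3, and after scaling those of MM9NEGATIVE003 did. No test was made of these probes.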

How the results depend on the processing

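Over the 14 alternatives other than leaving out an array, 2711 to 3812 probes were higher in the hypothalamus and 1802 to 3146 in the cerebellum. Leaving out 1 array at a time gave 3310 to 3618 and 2013 to 2698, and no probe called in both fits changed direction. The share of calls higher in the hypothalamus was 54.8% to 60.1% over the first of these, and 55.7% to 64.3% with 1 array left out, highest without the averaged cerebellum array. The lincRNA-named probes higher in the hypothalamus, 15 in the report, numbered 7 with normexp correction and 25 with all 12 scans counted or with a correction for position on the array, and 9 to 22 with 1 array left out. Those higher in the cerebellum, 19 in the report, numbered 11 with normexp, 34 with all 12 scans, 57 with scan time as a random block and 15 to 21 with 1 array left out. The probes above background in the hypothalamus alone numbered 287 to 530 with 1 array left out, and those in the cerebellum alone 362 to 611. Leaving out an array cannot lower either of these counts.

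Among the 15 genes, quantile normalization turned Ppia to -0.22, Gapdh to -0.23 and Tfrc to -0.16. Tfrc ranged from -0.016 (without cerebellum 2) to 0.14 (without the averaged array) with 1 array left out, and Ldhal6b was 0.024 with normexp. None of these 4 genes passed under those settings, and the cause was not tested. Of the values of single genes and probes, 464 kept their direction and their side of the threshold, 15 no longer passed, 13 newly passed and 5 changed sign. The deposited value table lacks the 15 genes' probes.

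For the replicate block, hypothalamus and cerebellum share 2 numbers, whose deviations correlated at r = 0.379 and 0.194. For these 10 arrays the replicate block is the same fit as scan time as a block, if each averaged array is given the scan time of its replicate 1. Slides were inferred from scan time. With the replicate block, 3596 and 2733 probes were called, and 30 lincRNA-named probes were higher in the cerebellum. All 13 same-numbered pairs over all 4 regions correlated above 0 (range 0.0932 to 0.747). Pairs with different numbers ran from -0.733 to 0.382, though deviations from a region's mean offset each other, which by itself lowers these. Arrays of the same number thus deviated alike, and what they share was not tested. The main fit has no term for it. No label ties the numbers to animals, so they were not taken as pairs of animals. Normexp used the median spot signal, because no mean spot signal was given.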
